A study of Homo sapiens with 12 samples.

Results

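The comparison described here is between Ect1 cells given recombinant human TGFB3 at 5 ng/ml and Ect1 cells given medium alone, both read after 10 h. It rests on 8 of the 12 arrays of the study, 4 titled as TGFB replicates and 4 titled as control replicates, chosen by those titles and not by any measured value. The other 4 arrays are cells given 10% pooled human seminal plasma, and they are used only where a value is set beside them. Ect1 is a line of human ectocervical epithelium immortalised with papillomavirus oncogenes, so every group shares that background, and all groups were grown to a confluent layer in serum-free keratinocyte medium with EGF, bovine pituitary extract and calcium before the medium was changed. Each array read RNA pooled from a separate set of 4 wells of this 1 line. The series' design text calls the replicates biological, but no source used here says whether they were separate culture runs, so the p-values measure the spread between these pools. The precision of every value is limited by the 4 arrays per group.

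Transforming growth factor betas are secreted in a latent form and are freed by integrins, proteases and other activators. The freed ligand joins the receptors TGFBR2 and TGFBR1, which phosphorylate SMAD2 and SMAD3. These enter the nucleus with SMAD4 and act on target genes, among them the inhibitors SMAD7, SKIL and PMEPA1 that damp the signal. In epithelium the pathway is known for slowing the cell cycle, for raising matrix and adhesion genes and, in some settings, for the shift towards a mesenchymal state. Seminal plasma is a known source of these ligands in the female tract.

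Linear signals for 54613 probe sets were read per array, and 19682 genes had a probe set with a single symbol. Median signals were 88.14 to 101.7 in the controls and 94.28 to 107.1 with TGFB3, and 16.3% to 20.2% of probe sets per array lay under the floor of 16 used here. Several markers of squamous epithelium were bright in all 8 arrays: KRT5 lay between 30577 and 49576, KRT14 between 33515 and 58918 and TP63, the transcription factor of basal keratinocytes, between 5466 and 10836. KRT4, of the same list, was dim, with group means of 116 in the controls and 126 with TGFB3 in its brightest probe set. The summed signal of 12 such markers was 173188 to 250939 in the controls and 193714 to 276320 with TGFB3, and 0 of them passed (limma; 1 was higher at an unadjusted p under 0.05). The columnar keratins KRT8, KRT18 and KRT19 were also bright, whereas MUC5B, a mucin of endocervical glands, stayed between 5.27 and 20.1. Not every glandular marker was that dim. In the brightest probe set, group means (control, then TGFB3) were 875 and 1066 for PAX8 and 206 and 280 for MUC5AC. Of 8 columnar and endocervical markers measured 0 passed. None of 6 endothelial and 11 prostate, seminal vesicle and sperm markers passed, with 0 and 1 at an unadjusted p under 0.05.

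The arrays did not spread evenly within their groups. Control replicates 3 and 4 were the most alike of all 28 pairs of arrays, with a correlation of log2 signals of 0.969, and TGFB3 replicates 2 and 3 were the most alike of the TGFB3 arrays, at 0.957. TGFB3 replicate 4 correlated more with control replicates 3 and 4 (0.956 and 0.959) than with the other TGFB3 arrays (0.943 to 0.951). Along the first principal component (22.8% of variance) the controls lay at -83.9 to -34.4 and TGFB3 replicates 1 to 4 at -15.7, 92.9, 104 and 21.6. The values of single arrays are therefore given for the genes below.

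At the threshold used, recombinant TGFB3 changed a limited set of genes, and among them rises were larger and more numerous than falls. Of 54613 probe sets, 300 (0.549%) had a limma adjusted p under 0.05, with 205 (0.375%) higher and 95 (0.174%) lower. They represent 150 genes, or 0.762% of those tested, of which 96 rose (0.488%) and 54 fell (0.274%). The median log2 fold change was 1.40 over the genes that rose and -0.90 over those that fell, beside -0.01 over all genes. By more than 1 on the log2 scale, 73 genes rose and 23 fell, and by more than 2, 17 rose and 2 fell. At an unadjusted p under 0.05 lay 3522 of the 19682 genes, the 150 included, and the authors' deposited table called 424. Counts of list members given below stand beside these totals, and a count near the same share says nothing of the list. In all 150 genes the 4 TGFB3 arrays lay on one side of the 4 controls, which was so for 11.2% of all genes. The 150 genes were called on these same arrays, so their lack of overlap is no separate support. Over all genes the TGFB3 arrays lay above the controls in 4.54% and below them in 6.65%, so falls were the more numerous by that measure. A gene is represented by its brightest probe set, and in the lists below some genes had another probe set that passed while this one did not, among them TGFBR1, FST, FN1, PLAU, IGF1R, MYLIP and GCLC. Counts of genes do not include them. Of 96 called genes with more than 1 probe set, 77 had every probe set moving the same way and 0 had probe sets called in opposite directions.

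The size of this list hung on single arrays. Without TGFB3 replicate 1 the count of genes was 331, and without TGFB3 replicates 2 and 3 it was 39 and 49. Without control replicates 1 to 4 it was 56, 91, 32 and 33. Of the 150 genes, 112 passed in 4 or fewer of the 8 fits that left out 1 array. Only 25 passed in each of them, among them 10 of the 30 largest changes: PMEPA1, AMIGO2, ITGB6, SLITRK6, G0S2, PPFIBP2, LSP1, CD14, SLC27A2 and RIBC2.

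Among the largest rises was that of PMEPA1. The values of the 4 arrays of a group stand in order of replicate number here and below. PMEPA1, which binds SMADs and damps TGF-beta signalling, was at 834, 727, 910 and 866 in the controls and at 9295, 12858, 15029 and 13035 with TGFB3. Its controls were tight, every TGFB3 array was far above them, and the log2 fold change of 3.89 ± 0.16 (SE, 4 arrays per group) had a limma adjusted p of 0.00145, a ratio of geometric means of 14.9. All 3 of its probe sets rose.

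Receptor, scaffold and protease genes followed. CHRNA9, the alpha-9 subunit of nicotinic acetylcholine receptors, stood at 126, 28.2, 49.5 and 37.5 in the controls and at 674, 540, 516 and 806 with TGFB3, which is 3.62 ± 0.46 on the log2 scale (limma adjusted p 0.0309). The rise of NEDD9, a docking protein of focal adhesions, was 3.42 ± 0.35 (limma adjusted p 0.0173). Its controls lay between 130 and 156, while the TGFB3 arrays were at 829, 2299, 2263 and 1108, with replicates 2 and 3 the highest, and 1 of its 3 probe sets passed. MMP10, the stromelysin-2 that degrades matrix, went from 258, 231, 115 and 187 to 1173, 2079, 1740 and 1436, a change of 3.06 ± 0.30 (limma adjusted p 0.0136). CHRNA9 passed in 1 of the 8 fits without an array, NEDD9 in 3 and MMP10 in 5.

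Further large rises took in surface and secreted proteins of several kinds. AMIGO2, an adhesion molecule with leucine-rich repeats, was at 1989, 2454, 3676 and 3094 in the controls and at 13394, 16485, 18680 and 21498 with TGFB3, a change of 2.66 ± 0.23 (limma adjusted p 0.0101). ITGB6, the beta-6 integrin chain whose dimer with ITGAV frees latent TGF-beta, was at 3639, 4170, 4668 and 4227 in the controls and at 21058, 21202, 26674 and 28668 with TGFB3. Its change of 2.54 ± 0.14 (limma adjusted p 0.00267) had one of the smaller errors among the large rises, and 3 of its 4 probe sets rose. SLITRK6, a transmembrane protein with leucine-rich repeats, rose by 2.43 ± 0.12 (limma adjusted p 0.00218) from 218 to 260 in the controls to 1161 to 1545. G0S2, an inhibitor of the fat lipase ATGL, rose by 2.38 ± 0.21, and TGM2, the tissue transglutaminase that crosslinks matrix proteins, by 2.55 ± 0.29 (limma adjusted p 0.0103 and 0.0233). The forkhead factor FOXL1 rose by 2.95 ± 0.32, with the controls between 27.4 and 76.7 and TGFB3 replicate 1 at 264 below the other TGFB3 arrays at 375 to 379. ODAPH, an enamel matrix protein, rose by 2.60 ± 0.28, but 3 of its 4 controls lay under the floor of 16, so the fold change depends on that floor.

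**Figure D1:**
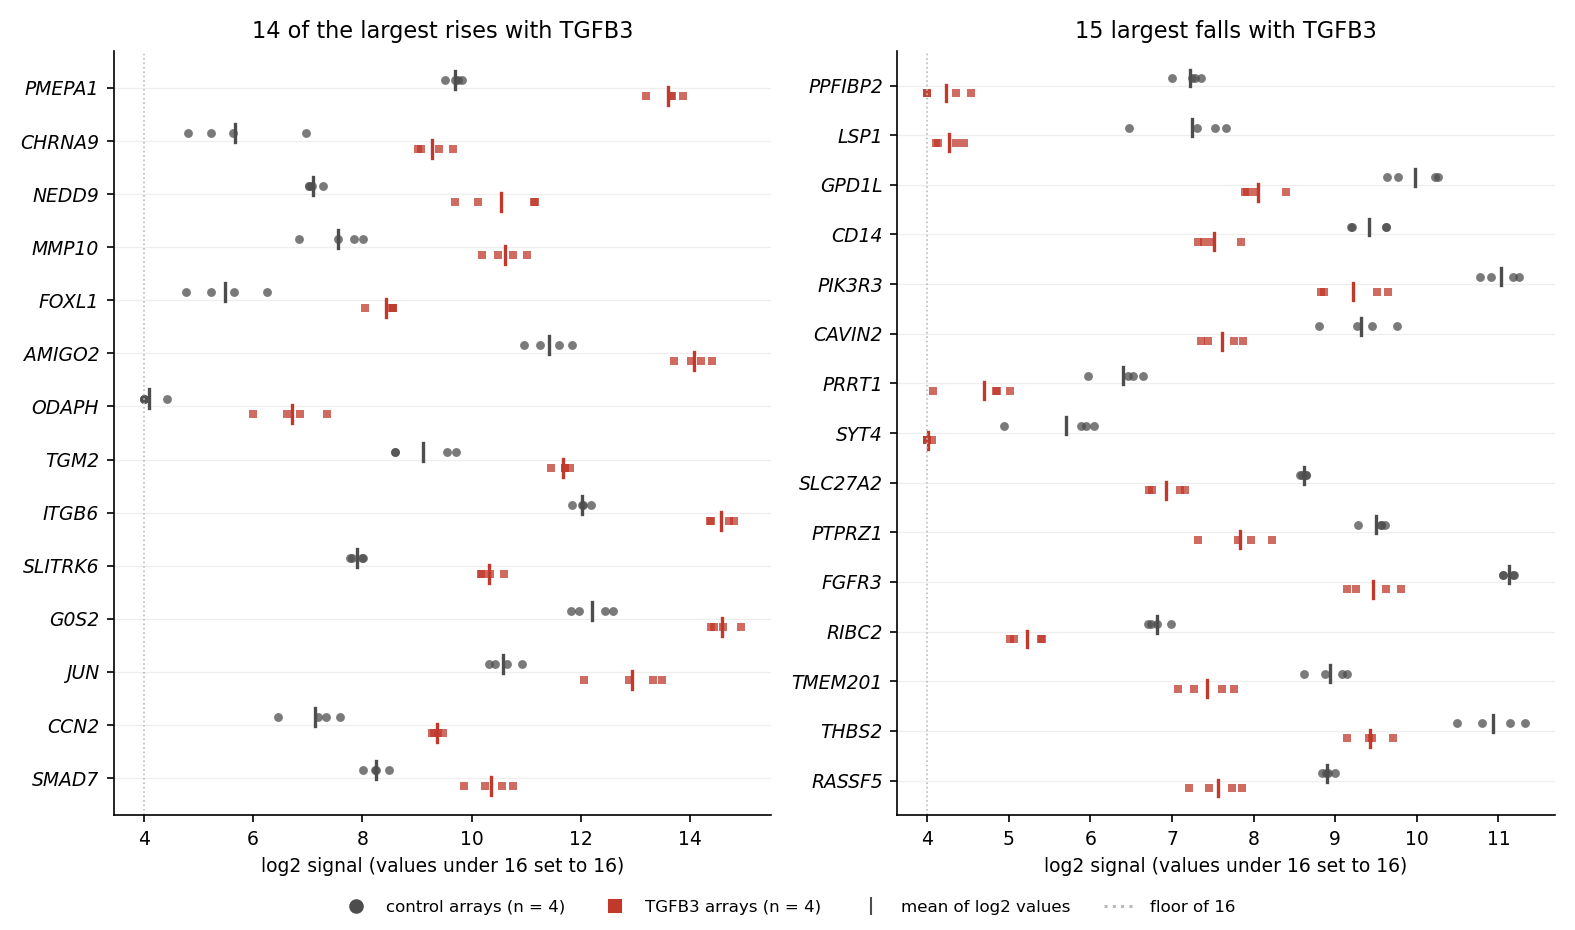
Each point is 1 array, on a log2 signal axis with values under 16 set to 16: grey circles are controls, red squares TGFB3 arrays, and bars the means of log2 values. Left are 14 of the largest rises, from PMEPA1 at 3.89 to SMAD7 at 2.10, and right the 15 largest falls, from PPFIBP2 at -3.00 to RASSF5 at -1.34. By the rule that picked them, no gene shown has overlapping groups.

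Falls were smaller, and the largest were in genes of low signal. PPFIBP2, a member of the liprin family, was at 156, 164, 128 and 152 in the controls and at 6.29, 23.2, 8.91 and 20.5 with TGFB3, so that 2 TGFB3 arrays lay under the floor. Its log2 fold change with that floor was -3.00 ± 0.15 (limma adjusted p 0.00218). The other PPFIBP2 probe set, with group means of 57.6 and 57.1, did not pass (limma adjusted p 0.866). Nor did the mean of its probe sets (-1.71, limma adjusted p 0.0928). LSP1, an actin-binding protein best known from leukocytes, was at 158, 89, 184 and 203 in the controls and between 17.3 and 21.9 with TGFB3 (-2.98 ± 0.26, limma adjusted p 0.0103). Both fell close to the floor, where the size of a fall cannot be read exactly. CD14, the lipopolysaccharide co-receptor, fell by 1.90 ± 0.16 on the log2 scale, from 590, 586, 785 and 790 to 229, 180, 168 and 160 (limma adjusted p 0.0101). CD14 was 1 of 12 leukocyte markers measured and the only one that passed, PTPRC, the pan-leukocyte marker CD45, lay between 1.27 and 42, and the summed signal of the 12 was 1353 to 1692 in the controls and 1232 to 1474 with TGFB3. In bulk RNA such as this, fewer cells that carry a transcript and less of it per cell cannot be told apart.

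Growth factor receptor and lipid genes were among the other falls. FGFR3, a receptor for fibroblast growth factors, was at 2139, 2134, 2346 and 2328 in the controls and at 790, 609, 566 and 897 with TGFB3. The groups were far apart, with a log2 change of -1.67 ± 0.16 (limma adjusted p 0.0125). PIK3R3, a regulatory subunit of phosphoinositide 3-kinase, changed by -1.82 ± 0.23, and PTPRZ1, a receptor tyrosine phosphatase, by -1.68 ± 0.20. GPD1L, related to glycerol-3-phosphate dehydrogenase, changed by -1.92 ± 0.19 and SLC27A2, a fatty acid transporter and acyl-CoA synthetase, by -1.68 ± 0.12, the latter with controls between 381 and 401. Limma adjusted p-values of these 4 genes lay between 0.00633 and 0.0308. CAVIN2, a coat protein of caveolae, changed by -1.71 ± 0.22, and THBS2, an anti-angiogenic thrombospondin, by -1.51 ± 0.21. RASSF5, a Ras effector, changed by -1.34 ± 0.15, and PRRT1, RIBC2 and TMEM201 by -1.70, -1.59 and -1.51. PRRT1 and RIBC2 were dim, and with a floor of 64 they stood at -0.41 (limma adjusted p 0.311) and -0.81. SYT4, a synaptotagmin, changed by -1.69 ± 0.24 with 3 of its 4 TGFB3 arrays under the floor.

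The ligand genes themselves did not pass, while the activating integrin did. Of 11 ligand and latency genes measured, 1 rose (ITGB6), 0 fell and 10 did not pass, with a median log2 fold change of 0.40. TGFB3, the gene of the ligand that was added, was at 93.9, 126, 85.9 and 66.4 in the controls and at 105, 142, 73.1 and 94.5 with TGFB3, and the groups overlapped. Its log2 fold change was 0.15 ± 0.26 (limma adjusted p 0.859). TGFB1 was at 937, 772, 1018 and 1060 in the controls and at 510, 1995, 1789 and 1361 with TGFB3, so that 1 treated array lay under all controls and 3 above them (0.42 ± 0.43, limma adjusted p 0.730). For TGFB2 the 4 TGFB3 arrays, at 99.6 to 216, lay above the controls at 16.3 to 86.3, but the log2 difference of 1.63 ± 0.53 had a limma adjusted p of 0.251.

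Among 12 receptors of the superfamily 1 rose and 0 fell, with a median of 0.23. BMPR2, the type II receptor of bone morphogenetic proteins, was at 819, 937, 898 and 896 in the controls and at 1542, 1422, 1477 and 1855 with TGFB3 (0.82 ± 0.10, limma adjusted p 0.0292), and 2 of its 5 probe sets passed. TGFBR1, the type I receptor of TGF-beta, was at 2150, 2881, 2886 and 2635 against 3952, 4708, 5371 and 5147. The groups did not overlap, yet its log2 difference of 0.86 ± 0.14 had a limma adjusted p of 0.0633. Of its other 2 probe sets 1 rose (1.11 ± 0.16, limma adjusted p 0.0475). The brightest passed under 4 of the alternatives, with limma adjusted p of 0.0116 to 0.0400. TGFBR2, the type II receptor, overlapped between groups at 2556 to 3301 and 2654 to 3892 (0.12 ± 0.16, limma adjusted p 0.783).

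The SMAD transducers gave no call with limma: 0 of 10 measured genes passed, 0 lay at an unadjusted p under 0.05, the authors' deposited table called 0, and the median was 0.16. SMAD2 differed by 0.18 ± 0.09 on the log2 scale and SMAD4 by 0.22 ± 0.16 (limma adjusted p 0.461 and 0.619). SMAD3 was at 580, 643, 808 and 738 in the controls and at 686, 1776, 1670 and 849 with TGFB3. Replicates 2 and 3 were thus above all other arrays, and replicates 1 and 4 were near the controls (0.74 ± 0.34, limma adjusted p 0.412).

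Feedback inhibitors held 2 of the largest rises. Of 14 measured, PMEPA1 and SMAD7 rose, 0 fell, and the median was 0.74. SMAD7, which blocks the type I receptor, was at 299, 358, 305 and 260 in the controls and at 926, 1724, 1498 and 1212 with TGFB3. Every treated array lay above every control by a wide margin, with a change of 2.10 ± 0.21 (limma adjusted p 0.0146). Without TGFB3 replicate 3, or without control replicate 1, 3 or 4, SMAD7 missed the threshold (limma adjusted p 0.0538 to 0.064). SKIL, the co-repressor SnoN, was higher in the 4 TGFB3 arrays (170, 367, 340 and 177) than in the controls (97.9, 120, 42.1 and 103), but at 1.55 ± 0.42 it did not pass (limma adjusted p 0.184). SKI, a related co-repressor, and SMAD6, an inhibitor of the bone morphogenetic protein branch, overlapped between groups, with log2 differences of 0.14 ± 0.24 and -0.25 ± 0.63. The direction of these last 2 genes depended on the setting.

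**Figure D2:**
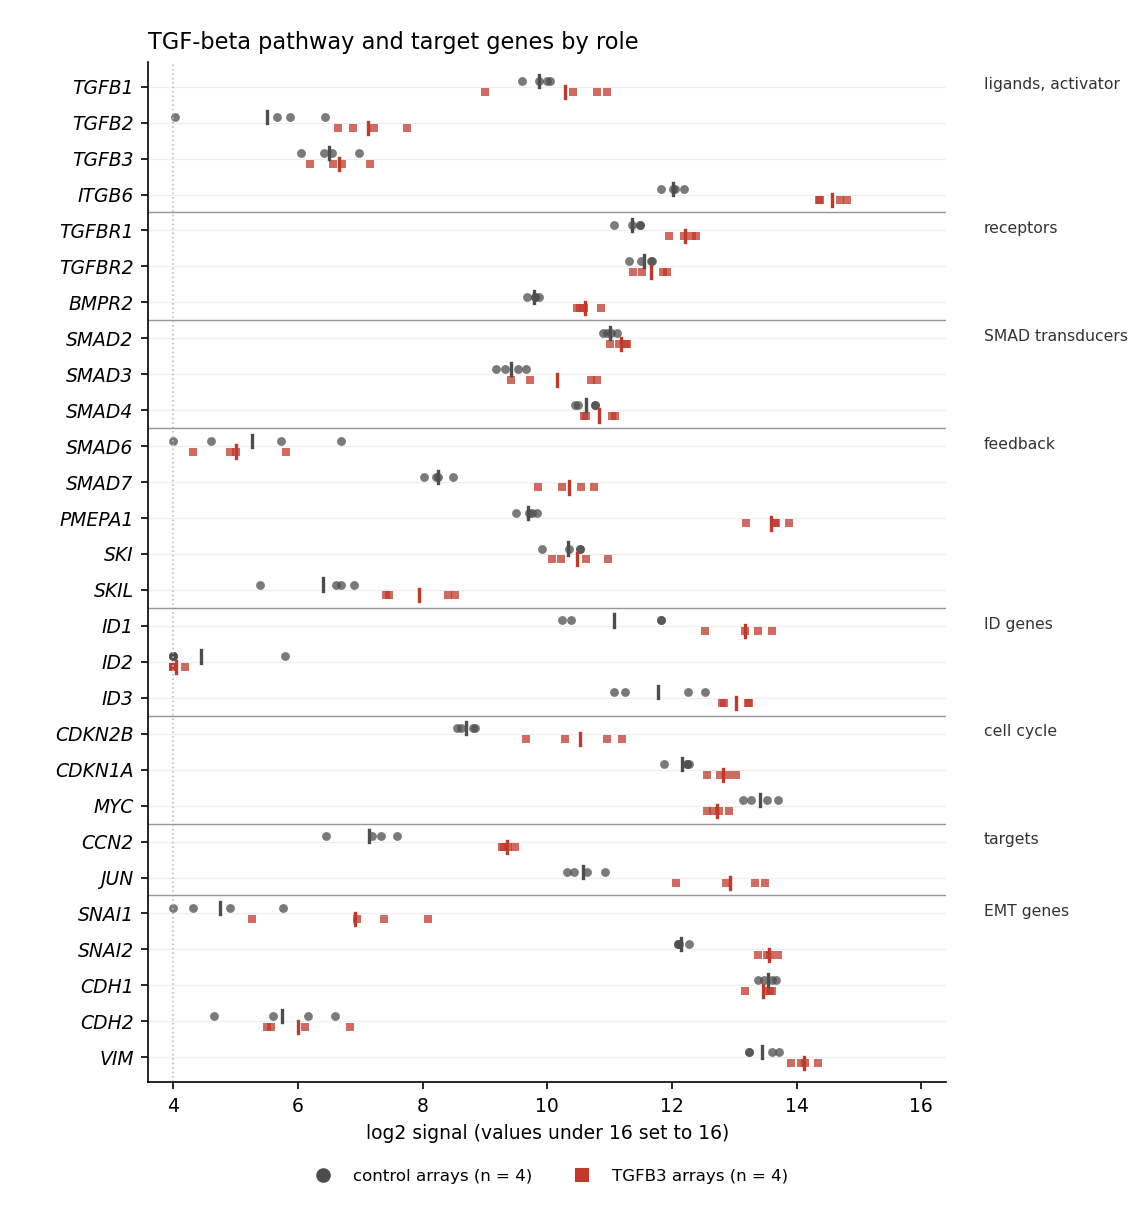
Signals of 28 TGF-beta pathway and target genes by role, 1 point per array (grey circles control, red squares TGFB3, bars the means of log2 values) on a log2 axis with values under 16 set to 16. ITGB6, BMPR2, SMAD7, PMEPA1, CCN2, JUN and SNAI2 passed; the ligands, SMAD2, SMAD3, SMAD4, CDH1 and CDH2 overlap between groups apart from TGFB2.

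The promoters of 4 of the largest rises are shown as examples of windows that hold the SMAD core CAGAC. They were chosen for that: of 12 windows examined for the largest rises, 6 hold none, those of PMEPA1, NEDD9, ITGB6, SLITRK6, G0S2 and JUN. Each window runs from 250 bases before to 50 after the annotated start, from RefSeq on GRCh38.p14, read 5′ to 3′ on the gene's strand. In the sequences, capitals mark the SMAD core CAGAC or its reverse GTCTG and the AP-1 element TGANTCA. SMAD7 is at chr18:48950916-48951215, CCN2 at chr6:131951323-131951622, MMP10 at chr11:102780579-102780878 and AMIGO2 at chr12:47079902-47080201, all on the minus strand.
SMAD7: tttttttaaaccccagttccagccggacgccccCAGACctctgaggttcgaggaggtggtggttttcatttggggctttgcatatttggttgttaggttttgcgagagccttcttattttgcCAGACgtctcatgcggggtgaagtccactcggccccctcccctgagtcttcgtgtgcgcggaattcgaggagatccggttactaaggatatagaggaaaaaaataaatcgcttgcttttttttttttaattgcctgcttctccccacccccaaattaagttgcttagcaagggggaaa
CCN2: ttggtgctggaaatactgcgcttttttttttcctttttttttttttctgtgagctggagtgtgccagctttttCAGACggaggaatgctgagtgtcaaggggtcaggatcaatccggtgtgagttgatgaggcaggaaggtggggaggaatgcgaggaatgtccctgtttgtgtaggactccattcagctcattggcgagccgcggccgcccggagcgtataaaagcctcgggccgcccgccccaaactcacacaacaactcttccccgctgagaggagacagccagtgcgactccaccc
MMP10: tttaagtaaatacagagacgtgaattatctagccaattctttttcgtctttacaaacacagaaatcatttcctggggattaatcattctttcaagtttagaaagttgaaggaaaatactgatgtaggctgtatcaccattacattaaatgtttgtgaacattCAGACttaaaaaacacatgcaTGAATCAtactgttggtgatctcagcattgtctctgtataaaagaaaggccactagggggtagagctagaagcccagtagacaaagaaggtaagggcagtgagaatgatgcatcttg
AMIGO2: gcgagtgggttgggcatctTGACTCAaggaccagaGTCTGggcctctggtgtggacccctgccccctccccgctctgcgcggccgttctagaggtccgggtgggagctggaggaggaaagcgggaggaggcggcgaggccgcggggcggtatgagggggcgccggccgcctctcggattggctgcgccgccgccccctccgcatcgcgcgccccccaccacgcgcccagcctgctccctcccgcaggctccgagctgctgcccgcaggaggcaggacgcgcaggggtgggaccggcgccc
These windows hold 2, 1, 1 and 1 copies of CAGAC on either strand, and those of MMP10 and AMIGO2 hold 1 AP-1 element each. Such short words are common: CAGAC was present on either strand in 46.8% of the windows of 77 genes that rose, in 53.3% of 45 that fell and in 43.9% of 13603 measured genes with a window. The AP-1 element, which reads as a match on both strands, was present in 5.19%, 4.44% and 5.49%. The palindrome GTCTAGAC was found in 0 windows of either set and in 0.14% of all. A match is a description of the letters and says nothing of binding in these cells. Windows were present for 77 of the 96 genes that rose and 45 of the 54 that fell.

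At 1 probe set per gene, activin and follistatin genes gave no call with limma. Of 17 measured genes of the activin, follistatin and bone morphogenetic protein group 0 passed, 3 were higher and 1 lower at an unadjusted p under 0.05, the authors' deposited table called 3 higher, and the median was 0.31. INHBA, the activin A subunit, was at 1204, 964, 577 and 620 in the controls and at 4874, 6699, 5679 and 2349 with TGFB3. The groups did not overlap, and the log2 difference of 2.51 ± 0.39 had a limma adjusted p of 0.0586. FST, follistatin, which binds activin, stood higher by 1.37 ± 0.25 (limma adjusted p 0.0819) in its brightest probe set. Another FST probe set rose by 1.15 ± 0.11, from 308 to 690 in the group means (limma adjusted p 0.0123), and the third differed by 1.54 ± 0.28. ID1 and ID3, inhibitors of helix-loop-helix factors, were also above all controls in the 4 TGFB3 arrays. ID1 was at 3609, 3648, 1209 and 1337 in the controls and at 9231, 10679, 12462 and 5946 with TGFB3 (2.11 ± 0.46, limma adjusted p 0.119). ID3 stood higher by 1.25 ± 0.36 (limma adjusted p 0.200). ID2 lay near the floor in nearly all arrays (-0.40 ± 0.42). Over the 4 ID genes 0 passed, 2 were higher at an unadjusted p under 0.05 and the authors' deposited table called 2 higher.

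Early target transcription factors were higher as a group in sign: 16 of 16 measured had a log2 fold change above 0, with a median of 0.84, and 9 lay above all controls (4.54% of all genes), yet 2 passed. JUN, a subunit of AP-1, was at 1273, 1597, 1379 and 1947 in the controls and at 4283, 10265, 11511 and 7514 with TGFB3. Replicate 1 was the lowest treated array and still lay above all controls (2.36 ± 0.33, limma adjusted p 0.0411), with 2 of 4 probe sets passing. JUN passed in 1 of the 8 fits without an array, the one without TGFB3 replicate 1, and missed the threshold with all 12 arrays, with no floor, with a floor of 64 and with median centring (limma adjusted p 0.0522 to 0.0769). RUNX1, a Runt factor that can bind SMADs, was at 512, 464, 520 and 506 against 873, 1006, 821 and 1072 (0.91 ± 0.10, limma adjusted p 0.0226), though only 1 of its 11 probe sets passed.

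Cell cycle regulators of the cytostatic response gave no call with limma. Of 14 measured 0 passed, 4 were higher and 4 lower at an unadjusted p under 0.05, the authors' deposited table called 1 higher and 1 lower, and the median was 0.05. CDKN2B, the inhibitor p15, was at 449, 458, 391 and 374 in the controls and at 812, 2343, 1998 and 1247 with TGFB3. All treated arrays lay above the controls with a spread of their own (1.83 ± 0.33, limma adjusted p 0.0818). CDKN1A, the inhibitor p21, was at 3755, 4856, 4929 and 4819 against 6060, 7025, 8312 and 7645 (0.66 ± 0.14, limma adjusted p 0.104). MYC, a driver of growth that TGF-beta is known to repress, was at 9897, 9023, 13299 and 11735 against 6493, 6950, 7759 and 6031. The groups did not overlap, and the log2 difference of -0.68 ± 0.15 had a limma adjusted p of 0.114. In the 24 mitotic and replication genes 0 passed, 0 were higher and 2 lower at an unadjusted p under 0.05, the authors' deposited table called 0, and the median was -0.05. MCM2 and MCM3, helicase subunits of replication origins, had the smallest p, with log2 differences of -0.54 ± 0.18 and -0.43 ± 0.15.

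Of the genes of epithelial-mesenchymal transition, SNAI2 alone passed among 17 measured (1 rose, 0 fell, median 0.09). SNAI2, the repressor Slug, was at 4364, 4962, 4456 and 4374 in the controls and at 10642, 12256, 13396 and 11854 with TGFB3. Both groups were tight, and the rise of 1.40 ± 0.09 (limma adjusted p 0.00533) passed in each of the 8 fits without an array. SNAI1, the related repressor Snail, was dim, at 54, 20, 30.1 and 8.31 against 38.6, 124, 167 and 272 (2.18 ± 0.66, limma adjusted p 0.223). CDH1, E-cadherin of epithelial junctions, was at 10711 to 13000 in the controls and at 9236 to 12417 with TGFB3 (-0.07 ± 0.12), and the probe sets of CDH2, N-cadherin, disagreed. The brighter one differed by 0.26 ± 0.49, whereas the other had group means of 21.2 and 172 (2.80 ± 0.59, limma adjusted p 0.112). VIM, the filament protein vimentin, was at 9626 to 13418 against 15366 to 20743 (0.67 ± 0.15, limma adjusted p 0.128). Its groups did not overlap.

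Matrix genes gave a few calls, in both directions. Of 17 matricellular and fibronectin genes 1 rose and 1 fell, with a median of 0.40. All 7 probe sets of FN1, the matrix protein fibronectin, were higher with TGFB3, by 1.75 to 4.31 on the log2 scale, and 1 passed, from a group mean of 29.9 to 602 (4.31 ± 0.38, limma adjusted p 0.0103). The brightest, with group means of 8659 and 29071, did not (1.84 ± 0.31, limma adjusted p 0.0690). FN1 is named after its values were seen. CCN2, connective tissue growth factor, was at 192, 162, 87.5 and 146 in the controls and at 618, 665, 712 and 636 with TGFB3, tight among the treated arrays (2.22 ± 0.24, limma adjusted p 0.0194). THBS2 was at 1775, 1447, 2565 and 2261 against 683, 567, 702 and 838, the opposite direction (limma adjusted p 0.0411). Of 19 collagens and collagen-modifying enzymes 2 rose and 0 fell, with a median of 0.85. Those were COL4A1 and COL4A2, the paired chains of basement membrane collagen, whose genes lie head to head. COL4A1 was at 756, 656, 750 and 687 in the controls and at 1562, 2407, 2616 and 2458 with TGFB3 (1.64 ± 0.17, limma adjusted p 0.0188), and COL4A2 was at 1324, 984, 1413 and 1301 against 2136, 2796, 2650 and 2495 (1.01 ± 0.14, limma adjusted p 0.0433). Of 10 fibroblast markers 0 passed (2 higher and 1 lower at an unadjusted p under 0.05, and 2 called higher in the authors' deposited table). Their summed signal was 1617 to 3527 in the controls and 3330 to 4900 with TGFB3, LUM lay under 16 on all 8 arrays and PDGFRA between 26.9 and 44. Others were brighter. In the brightest probe set, group means (control, then TGFB3) were 1226 and 2562 for COL1A1, 315 and 253 for THY1 and 232 and 228 for DCN. FAP and COL1A1 had the smallest p, and COL1A1 differed by 1.27 ± 0.47 (limma adjusted p 0.307). The part of such cells in the matrix genes was not tested.

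Integrins and laminins had the largest share of calls of the lists, 4 of 16 (25%, beside 0.762% of all genes), all higher, with a median of 0.51. ITGB6 was described above. ITGA2, the collagen-binding alpha-2 chain, was at 2127, 1894, 2435 and 2287 in the controls and at 5526, 7147, 7582 and 6507 with TGFB3 (1.61 ± 0.13, limma adjusted p 0.0082), and it passed in all 8 fits without an array. ITGAV, the alpha chain that pairs with ITGB6, was at 4898, 5166, 4489 and 4550 against 8695, 12528, 12208 and 9739 (1.16 ± 0.14, limma adjusted p 0.0244). LAMB3, the beta chain of laminin-332 in the epithelial basement membrane, was at 7904, 7469, 5398 and 5859 against 14209, 23852, 25945 and 19651 (1.63 ± 0.22, limma adjusted p 0.0407). In these 4 genes every treated array lay above every control.

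Proteases and their inhibitors gave 3 rises among 23 measured and 0 falls, with a median of 0.70. MMP10, described above, and SERPINE2 were among them. SERPINE2, protease nexin-1, an inhibitor of thrombin and plasminogen activators, was at 2660, 4321, 2320 and 2150 in the controls and at 8221, 9227, 9514 and 13182 with TGFB3 (1.84 ± 0.26, limma adjusted p 0.0415). Control replicate 2 and TGFB3 replicate 4 were each the highest of their group. Of 19 genes of the contractile actin cytoskeleton 2 rose and 0 fell, with a median of 0.34. LIMA1, the actin-bundling protein EPLIN, was at 7539, 8129, 8140 and 8015 against 13828, 13603, 15243 and 13944 (0.83 ± 0.07, limma adjusted p 0.0082). TES, testin of focal adhesions, rose by 1.01 ± 0.12 (limma adjusted p 0.0235) with 2 of 3 probe sets passing.

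**Figure D3:**
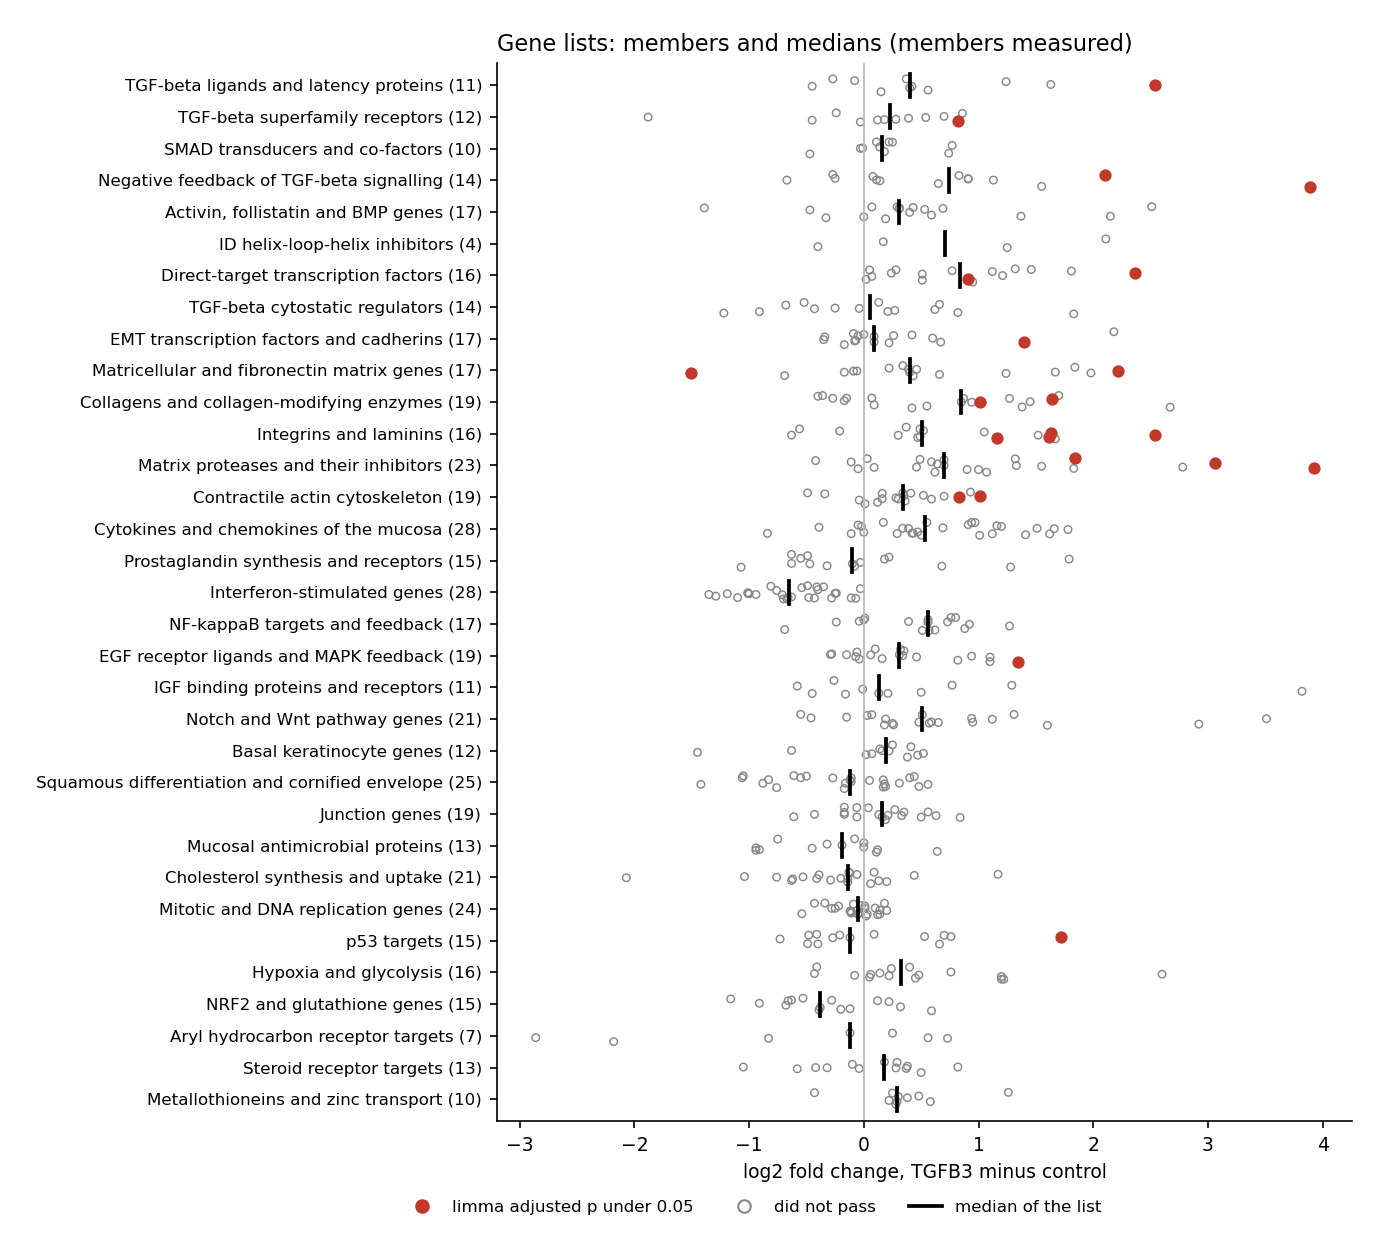
Log2 fold changes (TGFB3 minus control) of the measured members of 33 gene lists, 1 point per gene, filled red where the limma adjusted p was under 0.05, with black bars at list medians and the number measured in brackets. The medians run from -0.65 for the interferon-stimulated genes to 0.85 for the collagens and their enzymes, beside -0.01 over all genes.

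No cytokine or chemokine gene passed with limma, and the 4 TGFB3 arrays disagreed. Of 28 measured 0 passed, 6 were higher and 1 lower at an unadjusted p under 0.05, the authors' deposited table called 6 higher, and the median was 0.53. CXCL8, the neutrophil chemokine interleukin 8, was at 268, 323, 117 and 215 in the controls and at 413, 2689, 2912 and 67.8 with TGFB3. Replicates 2 and 3 were well above all controls, whereas replicate 4 lay under them (1.66 ± 1.23, limma adjusted p 0.639). CCL20, which attracts dendritic cells and lymphocytes, was at 476, 600, 512 and 431 against 1207, 2281, 2927 and 393 (1.41 ± 0.61, limma adjusted p 0.380). IL6 was at 207, 255, 217 and 194 against 459, 1275, 1440 and 363. All 4 treated arrays of IL6 lay above the controls, with the same pair highest (1.78 ± 0.48, limma adjusted p 0.181). Of the other cytokines, VEGFA, the vascular growth factor, differed by 1.20 ± 0.25 and IL1A by 1.62 ± 0.36, both with treated arrays above all controls (limma adjusted p 0.112 and 0.121). In the probe set that represents each gene, CSF2, LIF, IL11 and TNF overlapped between groups, with log2 differences of 0.39 ± 0.74, 0.55 ± 0.47, 1.12 ± 0.78 and 0.94 ± 0.38. The other probe set of IL11 had group means of 19.6 and 197 (3.00 ± 0.52, limma adjusted p 0.0725), and that of CSF2 had 39.7 and 180 (2.25 ± 0.90, limma adjusted p 0.340).

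In 16 of the 28 cytokine genes TGFB3 replicates 2 and 3 were the highest of the 8 arrays, as in 11.2% of all genes. The same held for 14 of 17 genes of the NF-kappaB group, subunits and feedback targets of that inflammatory factor. In this group 0 passed with limma, 2 were higher at an unadjusted p under 0.05, the authors' deposited table called 1 higher, and the median was 0.56. REL and TRAF1 had the smallest p, with log2 differences of 0.88 ± 0.30 and 1.27 ± 0.44. BCL3, a nuclear partner of NF-kappaB, showed the split and was chosen after its values were seen: it was at 325, 335, 380 and 369 in the controls and at 324, 1228, 1283 and 379 with TGFB3. ICAM1, the leukocyte adhesion receptor, chosen likewise, was at 981, 798, 1373 and 1326 against 617, 4119, 3788 and 704. Replicates 1 and 4 of TGFB3 were thus at or under the controls while replicates 2 and 3 were high together, and what sets these arrays apart was not tested. PMEPA1 and ITGB6, by contrast, had all 4 TGFB3 arrays far above the controls.

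**Figure D4:**
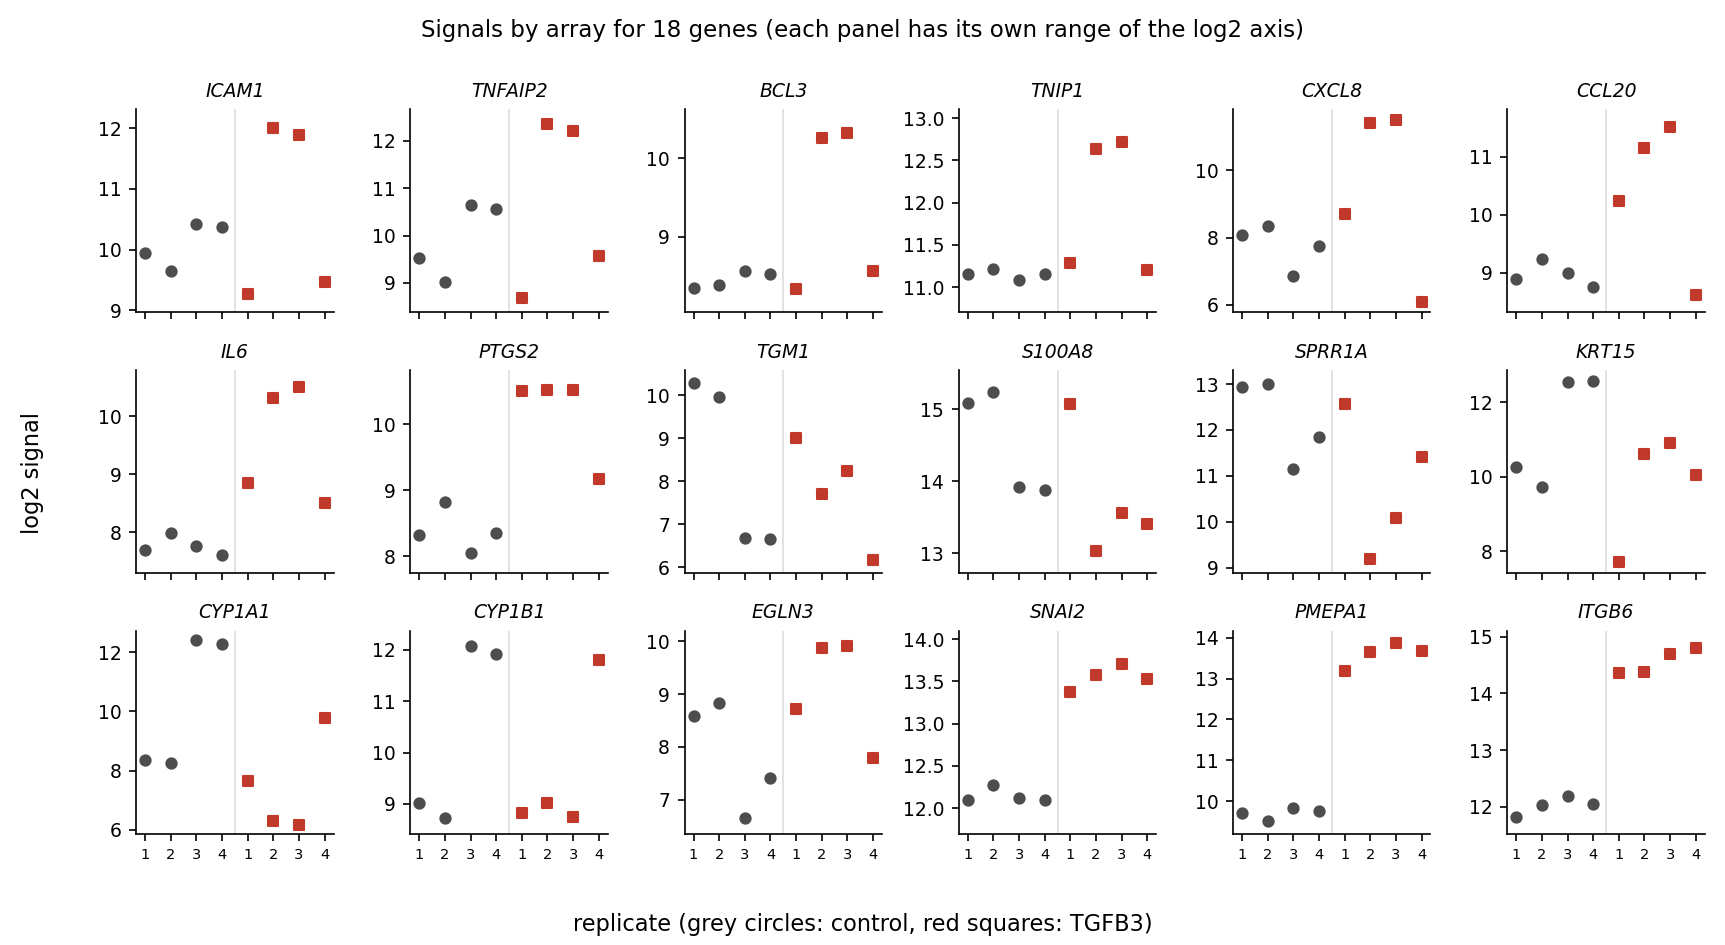
Log2 signals of 18 genes on each array, grey circles for control replicates 1 to 4 and red squares for TGFB3 replicates 1 to 4, with a separate axis range per panel. ICAM1, TNFAIP2, BCL3 and TNIP1 are high in TGFB3 replicates 2 and 3. TGM1, S100A8, SPRR1A, KRT15, CYP1A1, CYP1B1 and EGLN3 differ between control replicates 1 and 2 and control replicates 3 and 4. SNAI2, PMEPA1 and ITGB6 separate the treatments on every array. The genes named here, apart from SNAI2, PMEPA1 and ITGB6, were chosen after their values were seen.

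PTGS2, the inducible cyclooxygenase of prostaglandin synthesis, was at 321, 454, 264 and 325 in the controls and at 1455, 1470, 1463 and 575 with TGFB3. Replicates 1 to 3 were nearly equal and replicate 4 was lower, though still above all controls (1.79 ± 0.35, limma adjusted p 0.0934). PTGS1, the constitutive form, was lower in all treated arrays, 717 to 912 against 1124 to 1294 (-0.55 ± 0.09, limma adjusted p 0.0730). Of 15 prostaglandin genes 0 passed, 3 were higher and 5 lower at an unadjusted p under 0.05, the authors' deposited table called 2 higher, and the median was -0.10.

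Interferon-stimulated genes all had a log2 fold change under 0, without a single call. Of 28 measured 0 passed with limma, 12 were lower and 0 higher at an unadjusted p under 0.05, the authors' deposited table called 3 lower, and the median was -0.65. In 7 of them the treated arrays lay under all controls, as in 6.65% of all genes. OAS2, an antiviral RNA-sensing synthetase, was at 1006, 908, 1396 and 1308 in the controls and at 702, 382, 253 and 586 with TGFB3 (-1.35 ± 0.34, limma adjusted p 0.159). OAS1, of the same family, was at 645, 506, 569 and 697 against 408, 170, 217 and 314 (-1.19 ± 0.28, limma adjusted p 0.138). In both genes TGFB3 replicates 2 and 3 were the lowest of the 8 arrays.

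Single members passed in 2 further lists. IER3, an immediate early survival gene counted among 19 EGF and MAPK feedback genes (1 rose, 0 fell, median 0.31), was at 4878, 5179, 6385 and 6214 against 12459, 14351, 17981 and 12667 (1.34 ± 0.15, limma adjusted p 0.0234). HBEGF, an EGF receptor ligand of that list, was at 284, 275, 556 and 594 against 412, 942, 831 and 213 (0.35 ± 0.54). GADD45A, a stress sensor counted among 15 p53 targets (1 rose, 0 fell, median -0.12), was at 6617, 4889, 4392 and 5256 against 15359, 18787, 22225 and 13780 (1.72 ± 0.19, limma adjusted p 0.0216). The cells carry papillomavirus oncogenes, as did the controls.

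The other lists held no call with limma at 1 probe set per gene. Among 11 insulin-like growth factor genes, 3 were higher and 1 lower at an unadjusted p under 0.05 and the authors' deposited table called 2 higher. IGFBP3, the main carrier of these factors, was at 1947, 1223, 291 and 645 against 13390, 14335, 17374 and 5404, a log2 difference of 3.82 ± 0.66 that had a limma adjusted p of 0.0720. Its controls differed among themselves by several times. IGF1R, the receptor, differed by 0.77 ± 0.15 in its brightest probe set, and another of its probe sets rose by 1.13 ± 0.13 (limma adjusted p 0.0218). Among 21 Notch and Wnt genes, 8 were higher and 0 lower at an unadjusted p under 0.05, the authors' deposited table called 4 higher, and LFNG, the Notch-modifying Lunatic fringe, differed by 2.92 ± 0.46 (limma adjusted p 0.0606). Among 21 cholesterol genes, 2 were higher and 4 lower at an unadjusted p under 0.05, the authors' deposited table called 1 higher and 2 lower, and MYLIP, which degrades the LDL receptor, differed by -2.07 ± 0.34 (limma adjusted p 0.0668), while 2 of its 6 probe sets fell, with log2 changes of -1.72 ± 0.20 and -1.65 ± 0.24 (limma adjusted p 0.0235 and 0.0475). Among 15 NRF2 and glutathione genes, 1 was higher and 7 lower at an unadjusted p under 0.05, the authors' deposited table called 0, and the median was -0.38. GCLC, the catalytic subunit of glutathione synthesis, differed by -0.63 ± 0.18 in its brightest probe set, while another fell at -0.61 ± 0.08 (limma adjusted p 0.0306). Basal keratinocyte, differentiation, junction, antimicrobial, steroid receptor, metallothionein, hypoxia and aryl hydrocarbon receptor lists had medians between -0.19 and 0.32, with at most 3 members higher and 2 lower at an unadjusted p under 0.05. Of these lists, in the authors' deposited table, 3 hypoxia genes and 1 gene of the metallothionein and zinc transport list were called higher. One aryl hydrocarbon receptor gene was called lower there, and 0 of the other 5 lists were called.

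Differentiation genes split the controls. In 17 of 25 genes of squamous differentiation control replicates 1 and 2 both lay above control replicates 3 and 4, as in 21.7% of all genes. S100A9, a calcium-binding alarmin, was at 15809, 18209, 7599 and 6660 in the controls and at 12113, 2837, 4688 and 4954 with TGFB3 (-1.05 ± 0.53, limma adjusted p 0.469). The same order of the controls held for 14 of 16 hypoxia and glycolysis genes, and the reverse order, seen in 23.6% of all genes, for 18 of 24 mitotic and replication genes. ALDH3A1, a target of the aryl hydrocarbon receptor, was at 129, 176, 684 and 641 in the controls and at 123, 7.42, 83.3 and 143 with TGFB3 (-2.18 ± 0.89, limma adjusted p 0.351). The labels give no batch, scan or culture run by which these arrays could be blocked, and the part of this split in the calls was not tested beyond the fits without single arrays.

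Seminal plasma was set beside TGFB3 in 1 fit of all 12 arrays, in which 945 probe sets (1.73%) and 376 genes (1.91%) passed between the 2 treatments. A pair of the seminal plasma arrays, replicates 3 and 4, differed from the rest, with median signals of 177.6 and 131.5 and 8.01% and 12.8% of probe sets under the floor. Without them 137 genes (0.696%) passed. Of the 150 genes changed with TGFB3, 32 lay in this contrast past the threshold: 23 of those that rose were lower with seminal plasma, 3 were higher, and 6 of those that fell were higher. Without the pair of arrays it was 11, 1 and 7. The genes were chosen on the same TGFB3 arrays, so nothing is read from these counts.

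SMAD7 was at 586, 462, 272 and 348 with seminal plasma, below all TGFB3 arrays, and the difference (seminal plasma minus TGFB3) was -1.71 ± 0.27 on the log2 scale (limma adjusted p 0.0233). Without seminal plasma replicates 3 and 4 it was -1.33 with a limma adjusted p of 0.0673. NEDD9 and TGM2 differed by -1.98 ± 0.35 and -1.70 ± 0.36 (limma adjusted p 0.0305 and 0.0470), and did not pass without them (limma adjusted p 0.131 and 0.214). Of the genes that fell, PTPRZ1 was at 546, 727, 384 and 453 with seminal plasma and differed by 1.18 ± 0.24, and by 1.47 without the pair (limma adjusted p 0.0431 and 0.0482).

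Other genes gave no call between the treatments. PMEPA1 was at 12209, 7157, 14829 and 16405 with seminal plasma, within and around the range of the TGFB3 arrays, and the difference was -0.03 ± 0.26 (limma adjusted p 0.957). For G0S2 it was 0.18 ± 0.27 and for PPFIBP2 0.17 ± 0.26. MMP10, at 5429, 1400, 4883 and 2827, differed by 1.03 ± 0.42 (limma adjusted p 0.190). A p that misses the threshold does not show that the treatments act alike. The brightest probe set of FST, follistatin, was at 22720, 15917, 19612 and 24532 with seminal plasma and differed by 1.72 ± 0.25 (limma adjusted p 0.0181, and 0.0678 without the pair). ID3 was at 1658, 2482, 284 and 396 and differed by -3.34 ± 0.65 (limma adjusted p 0.0369, and 0.0862 without the pair).

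**Figure D5:**
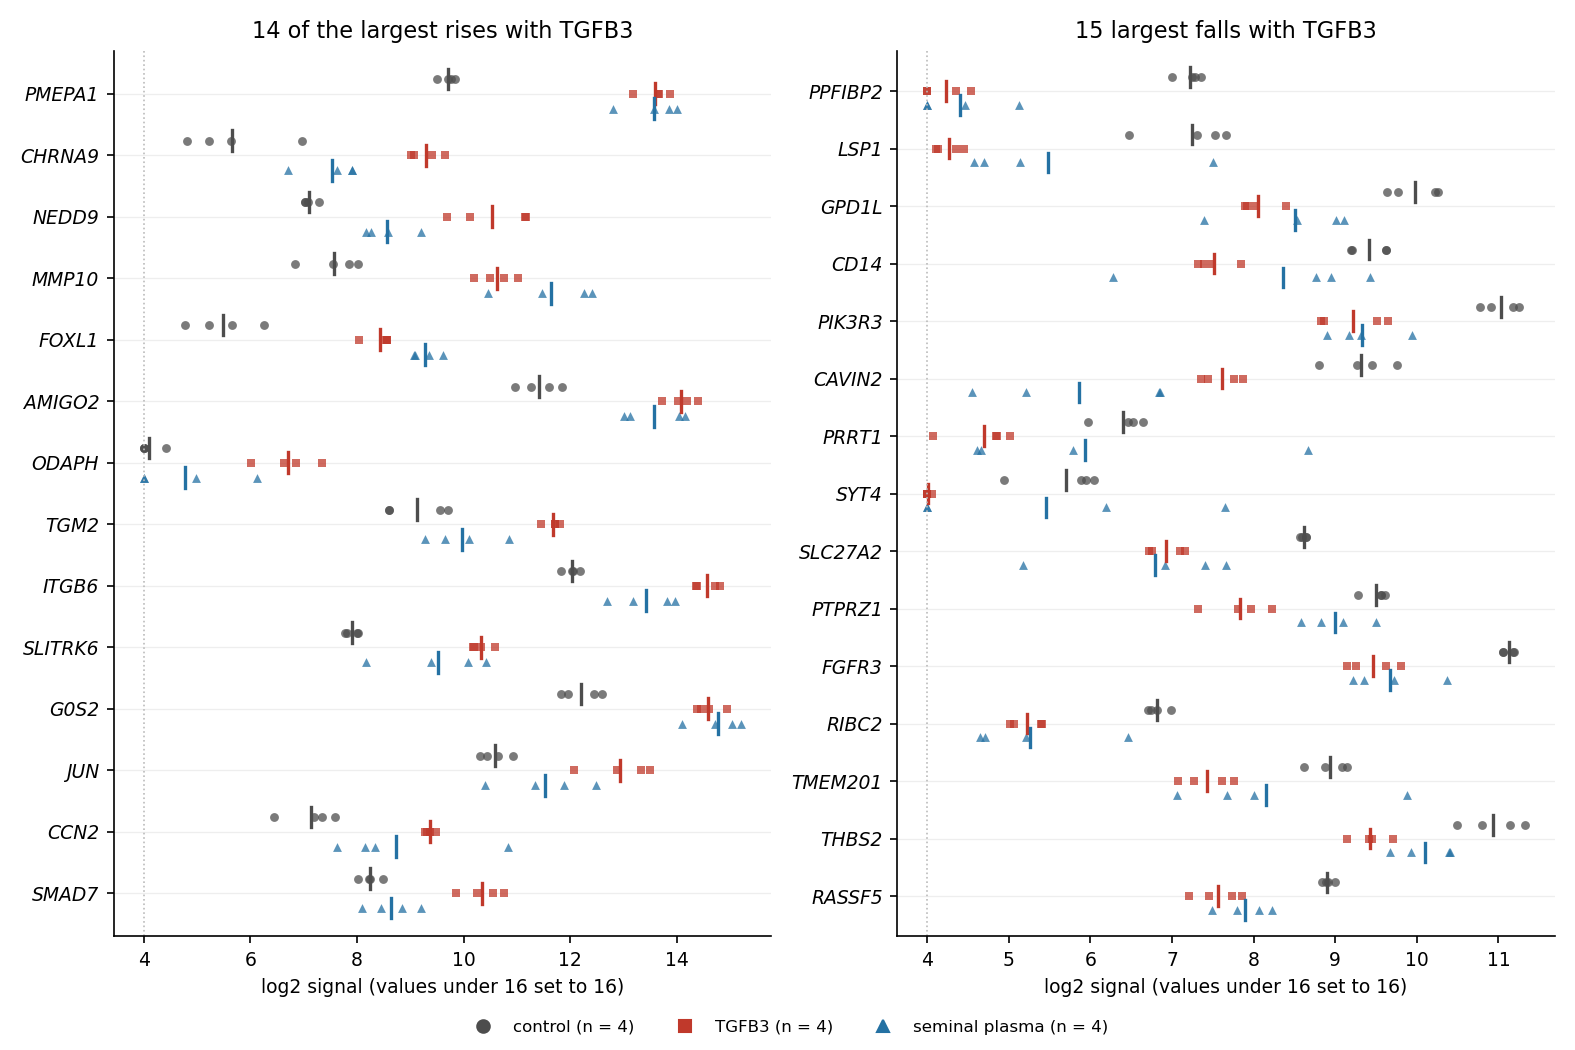
Log2 signals of 14 of the largest rises and the 15 largest falls with TGFB3 on all 12 arrays, 1 point per array (grey circles control, red squares TGFB3, blue triangles seminal plasma) with bars at the means of log2 values. PMEPA1 and G0S2 lie in the same range with both treatments, whereas the seminal plasma arrays of SMAD7 lie below the TGFB3 arrays.

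The authors' deposited table, which gives a fold close to the ratio of arithmetic means, a p-value from an unnamed test and a call for the same comparison, called 884 probe sets, 592 higher and 292 lower, all with a fold of at least 2 in the authors' deposited table and none with a p above 0.0499. Of the 300 probe sets called here 166 carried that call. PMEPA1 had a fold of 15.05 and PPFIBP2 of -10.19 in the authors' deposited table. RUNX1, BMPR2 and LIMA1, with folds of 1.88, 1.77 and 1.78 in the authors' deposited table, carried no call there.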

How the data were processed

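RNA of Ect1 cells was read on Affymetrix U133 Plus 2.0 arrays. The authors deposited 1 linear signal intensity per probe set and array. GCOS 1.4, MAS5, R 2.6.1, Partek and RMA are named in the submitters' processing notes with no role or order, so which method summarised the intensities is not stated. The labels' protocol and the series' design text describe the labelling of RNA differently. The authors also deposited a fold, a p-value and a call per probe set for the same comparison; the test behind that p-value is not given.

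Signals were floored at 16, taken to log2 and fitted with limma 3.58.1 in R 4.3.3 (lmFit, eBayes, no covariate) on the 4 control and 4 TGFB3 arrays. The seminal plasma arrays were left out because a pair of them stand apart. P-values were two-sided and adjusted by Benjamini-Hochberg across the 54613 probe sets and held to 0.05. A gene is represented by its probe set of highest mean log2 signal, and symbols follow the deposited annotation, updated through RefSeq where it matched. A second fit of all 12 arrays gave seminal plasma minus TGFB3. Levels were not compared between genes, since probes differ. The fit was tested on simulated data. Figures were drawn with Python 3.11.15, pandas 2.3.3, numpy 2.4.6 and matplotlib 3.10.9.

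The text names the 15 genes that rose most and the 15 that fell most, of those that passed with no overlap between groups, list members that passed or otherwise the smallest p of a list, and a fixed set of pathway genes. Some genes are not reported here. Genes outside this rule are marked as chosen after their values were seen. Exceptions without this mark are cell type markers and some genes named for another probe set that passed. The members and lists were chosen with earlier results of these data known. Alternatives varied the arrays, floor, normalization, dim filter, replicate block, eBayes options and gene summary. No column was left unassigned to a sample (0 such columns).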

Additional observations from a re-analysis of the deposited data

Results flagged for a closer look

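In groups of 4 arrays, a single array was set apart when its gap to the nearest other array, as a share of the group's range, exceeded Dixon's critical value. Of 146 groups over 73 genes 11 were so marked, and chance marks about 1 in 20 groups. Among the controls, replicate 1 was lowest for CDKN1A (3755 beside 4819 to 4929, gap 0.917 of the range) and PTPRZ1 (619 beside 756 to 782, 0.857). Control replicate 2 was highest for SNAI2 (4962 beside 4364 to 4456, 0.836), and for ODAPH (21.5) and ID2 (55.6), where the other 3 controls lay under the floor and the gap was 1.000 of the range. Control replicate 4 was lowest for SYT4 (30.8 beside 59 to 65.9, 0.854).

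Among the TGFB3 arrays, replicate 1 was lowest for COL4A1 (1562 beside 2407 to 2616, 0.838) and FOXL1 (264 beside 375 to 379, 0.973). Replicate 4 was lowest for PTGS2 (575 beside 1455 to 1470, 0.989). TGFB3 replicate 1 for ID2 (18.3) and replicate 3 for SYT4 (16.6) were the only arrays of their group above the floor, with a gap of 1.000. What sets these arrays apart was not tested.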

How the results depend on the processing

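The 300 probe sets and 150 genes became 104 and 58 with all 12 arrays, 80 and 36 without a floor, 139 and 59 with median centring, 694 and 383 over probe sets with a mean signal of at least 100 (fewer tested), and 496 and 290 with trended, robust eBayes. A floor of 64 and quantile normalization kept both counts within 1.5 times. Genes numbered 258 with means of all probe sets and 424 by the authors' deposited call. Leaving out 1 array gave 74 to 620 probe sets and 32 to 331 genes. Of 945 probe sets between seminal plasma and TGFB3, 394 passed without seminal plasma replicates 3 and 4, and 91 to 7055 without 1 array. Apart from fits on fewer arrays or probe sets, the cause was not tested.

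With the replicate block 0 probe sets and 0 genes passed with limma (7451 probe sets at an unadjusted p under 0.05) and 47 between the treatments. Same-numbered arrays correlated at 0.15, 0.00, 0.00 and 0.11 in their deviations. Control replicates 1 and 4 correlated best with the TGFB3 array of their own number. Control replicates 2 and 3 correlated best with another number, at 0.06 and 0.10. These values therefore do not settle whether the numbers mark pairs.

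None of the 30 largest changes reversed under any alternative run. Directions that reversed were all of genes that did not pass: SMAD6 (0.25) and SKI (-0.24) with probe set means. Without 1 array TGFB3 ranged from -0.02 to 0.31, SMAD6 from -0.67 to 0.23, SKI from -0.02 to 0.28, ID2 from -0.55 to 0.05, CDH1 from -0.12 to 0.02, CDH2 from -0.11 to 0.54 and CSF2 from -0.04 to 0.86. With a floor of 64, ODAPH went to 0.71, PPFIBP2 to -1.22, LSP1 to -1.24, PRRT1 to -0.41, SYT4 to -0.01 and RIBC2 to -0.81; of these only PPFIBP2 and RIBC2 still passed.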

Other observations

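Further called genes outside the lists are given here and were chosen after their values were seen. PTHLH, the parathyroid hormone-related peptide, stood at 1181, 1168, 1334 and 1559 in the controls and at 6166, 4855, 5131 and 4364 with TGFB3 (1.97 ± 0.14, limma adjusted p 0.00633). PTPRK, a receptor tyrosine phosphatase of cell contacts, rose by 2.05 ± 0.15, and IVNS1ABP, a Kelch protein that binds actin, by 2.10 ± 0.12. These 3 genes passed in all 8 fits without an array. Of single genes at cell adhesions, LIMS1 (PINCH) rose by 0.92 ± 0.06, FHL2 by 1.31 ± 0.11, and FERMT2 (kindlin-2) by 1.47 ± 0.16 (limma adjusted p 0.00604, 0.0082 and 0.0201), and no list of such genes was counted. Of the growth factors, VEGFC rose by 0.78 ± 0.10 and PDGFC by 0.83 ± 0.12, and each passed in 1 of those 8 fits.

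Some genes of ribosome production and RNA processing fell. POLR1B, a subunit of RNA polymerase I, was at 1859, 1910, 1847 and 2001 in the controls and at 1174, 731, 700 and 884 with TGFB3 (-1.16 ± 0.17, limma adjusted p 0.0475). POLR1F, of the same polymerase, was at 850 to 903 against 626 to 653 (-0.46 ± 0.06), and WDR36, NOL8 and EXOSC4 changed by -0.62, -0.71 and -0.73. No list of such genes was counted, so how many of them moved is not given.

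The controls differed widely in CYP1A1, an aryl hydrocarbon receptor target chosen after its values were seen, at 330, 304, 5503 and 4985, beside 201, 78.1, 72.5 and 879 with TGFB3 (-2.86 ± 1.34, limma adjusted p 0.423). TGM1, the transglutaminase of the cornified envelope, was at 1254, 997, 103 and 101 in the controls and at 519, 210, 302 and 71.9 with TGFB3. KRT15, a basal keratin, ran the opposite way among the controls, at 1235, 841, 5966 and 6055. TGM1 and KRT15 were likewise chosen after their values were seen.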
